A study of Mus musculus with 4 samples.

Results

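The interferon regulatory factor (IRF) genes Irf1, Irf2, Irf3, Irf4, Irf5 and Irf8 and the IRF2-binding gene Irf2bp2 were compared between wild-type B1a and follicular B2 cells. These 7 genes were chosen by name from the 20599 gene symbols in the deposited tables, and counts of each symbol were summed over its entries. All 7 are counted under a single entry, and all 7 passed the filter on low counts that left 12078 genes for testing. B1a libraries (n = 2) were prepared from B1a cells sorted from peritoneal washes as IgM+ CD5+ CD23- B cells, and B2 libraries (n = 2) from splenic follicular B cells sorted as CD21+ cells with high IgD and low IgM. All mice were C57BL/6, carried a wild-type genotype and served, by the methods, as littermate controls of Dnmt3a-deficient animals; the Dnmt3a-deficient libraries were not analyzed here. The labels give an age of 4 weeks for every library. A supplementary legend also gives 4 weeks for the mice whose B1a and B2 RNA-Seq reads served for antibody repertoires. The methods, however, name an older age for the follicular B cells. The methods also give a range of sorted cell numbers for B1a samples that reaches below the number for follicular samples. Cell type, anatomical site, possibly age and possibly cell number thus change together and cannot be told apart.

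IRF proteins share an N-terminal DNA-binding domain that contacts GAAA-type sequences, and they differ in what activates them and in their partners. IRF4 and IRF8 are close relatives that bind weakly alone and are recruited to DNA by the ETS factors PU.1 and SPIB or by AP-1 dimers containing BATF. In B cells IRF8 is known for germinal center and follicular programs, and IRF4, whose gene is induced by antigen receptor signals, for plasma cell differentiation. IRF3 and IRF5 are activated by phosphorylation downstream of nucleic acid sensors and Toll-like receptors, IRF1 activates and IRF2 mostly represses interferon-responsive genes, and IRF2BP2 is a corepressor that binds IRF2.

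The promoter sequences of the members on which the comparison rests are given first, because some of them, Irf1 and Irf8, are themselves induced by interferons. The 250 bases before the first annotated start were read from RefSeq (GRCm38.p6, the mm10 build of the files) for Irf4 (chr13:30748983-30749232, plus strand), Irf8 (chr8:120736108-120736357, plus strand), Irf1 (chr11:53769764-53770013, plus strand), Irf2 (chr8:46739495-46739744, plus strand) and Irf2bp2 (chr8:126593987-126594236, minus strand), and each is written 5′ to 3′ along its gene. Capitals mark matches on either strand to a STAT site (TTCNNNGAA, the gamma-activated sequence), an interferon-stimulated response element (GAAANNGAAA) or an ETS-IRF composite element (GGAANNGAAA).
Irf4: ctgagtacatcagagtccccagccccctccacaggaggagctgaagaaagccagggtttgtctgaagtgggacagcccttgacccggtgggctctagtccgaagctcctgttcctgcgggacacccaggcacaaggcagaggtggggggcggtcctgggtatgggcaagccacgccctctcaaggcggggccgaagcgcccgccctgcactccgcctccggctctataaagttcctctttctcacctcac
Irf8: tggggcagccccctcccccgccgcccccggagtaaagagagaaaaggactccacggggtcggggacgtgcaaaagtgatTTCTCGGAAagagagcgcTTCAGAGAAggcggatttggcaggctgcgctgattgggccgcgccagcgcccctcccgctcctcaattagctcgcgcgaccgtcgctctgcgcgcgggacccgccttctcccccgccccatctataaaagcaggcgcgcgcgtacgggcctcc
Irf1: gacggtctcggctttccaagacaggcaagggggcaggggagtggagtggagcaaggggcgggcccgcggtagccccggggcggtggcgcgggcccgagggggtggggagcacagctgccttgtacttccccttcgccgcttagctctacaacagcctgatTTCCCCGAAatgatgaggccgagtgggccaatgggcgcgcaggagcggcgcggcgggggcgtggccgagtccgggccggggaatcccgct
Irf2: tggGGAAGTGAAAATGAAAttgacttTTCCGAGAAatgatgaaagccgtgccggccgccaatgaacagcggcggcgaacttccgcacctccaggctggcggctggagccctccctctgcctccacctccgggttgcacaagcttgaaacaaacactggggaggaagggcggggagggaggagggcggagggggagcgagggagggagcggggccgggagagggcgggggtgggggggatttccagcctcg
Irf2bp2: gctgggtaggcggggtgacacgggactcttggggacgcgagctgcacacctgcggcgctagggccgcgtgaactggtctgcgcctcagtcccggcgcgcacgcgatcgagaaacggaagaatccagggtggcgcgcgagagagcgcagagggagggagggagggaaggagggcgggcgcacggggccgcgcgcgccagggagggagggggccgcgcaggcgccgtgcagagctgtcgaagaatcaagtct

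The Irf8 window held a pair of STAT-type matches, TTCTCGGAA and TTCAGAGAA, which began 171 and 153 bases before the start. Irf1 held 1 such match, TTCCCCGAA, at 90 bases. Irf2 held a composite match (GGAAGTGAAA, 247 bases before the start) that overlapped a response element match (GAAAATGAAA, 241 bases), and a STAT-type match (TTCCGAGAA, 224 bases). The Irf4 and Irf2bp2 windows held none of these letters, nor did that of Irf3. The only Irf5 window (chr6:29526375-29526624) also held none. It lies inside the gene at the coordinates used here (29526130 to 29541869), so the bases before that start were not read. Irf1 and Irf8 each have a second annotated start, and the windows before it (chr11:53770223-53770472 and chr8:120738389-120738638) held no match to any of the 3 motifs. Over all 32851 promoter windows of this length, 7.02% held the STAT-type motif, 2.98% the response element and 2.3% the composite element. A match is a description of the letters and not a site of binding.

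The libraries held between 11032732 and 18588623 counts, so the 890 or more counts of every member in every library lay far above the 3 counts taken as the floor. This floor covers counting error only. Some genes far above it in 1 B1a replicate were at or near 0 in the other. Sdc1 had 0 and 92 counts and Cd3g 116 and 2 counts in B1a replicates 1 and 2. Genes with a count numbered 11290 and 12456 in B1a and 14223 and 12934 in B2 libraries. The B1a replicates resembled each other less (r = 0.836 across genes, which are not independent replicates) than the B2 replicates (r = 0.966). B1a markers fitted the labels, with Zbtb32 at 298 and 245 CPM in B1a and 3.64 and 2.56 CPM in B2 libraries, as did Fcer2a at 63.7 and 61.0 CPM in B1a and 934 and 896 CPM in B2 libraries, although Fcer2a encodes CD23, by which B1a cells were gated. Of 5 B1a markers 4 were called higher in B1a cells, all but Cd5 (log2 fold change 2.32, edgeR adjusted p = 0.146), and both follicular markers were called higher in B2 cells. The sorts also used CD5 and CD21, which the follicular marker Cr2 encodes, so Cd5 and Cr2 are no independent check of the labels. Other gates for B1a cells in the paper used CD43 and CD11b, which the B1a markers Spn and Itgam encode. The 4 B cell markers reported summed to 4415 and 4136 CPM in B1a and 3214 and 3320 CPM in B2 libraries. Cd79a (log2 fold change 0.53, edgeR adjusted p = 0.0349) and Ms4a1 (0.73, edgeR adjusted p = 0.0299) were called higher in B1a cells. Pax5 was called lower (-0.90, edgeR adjusted p = 0.01), and Cd79b was not called. CPM is the count scaled to library size with TMM factors. The labels name separate replicates but not their animals, while the methods name 2 littermate control mice for each cell type. The p-values compare the group difference with the spread estimated from these libraries.

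Of the 7 genes, Irf8 fell and Irf2bp2 rose in B1a cells, and the remaining 5 did not pass the test (quasi-likelihood test of edgeR, Benjamini-Hochberg adjusted p over all 12078 genes under 0.05). Over all genes tested, 5.74% were called, 4.24% higher in B1a and 1.5% higher in B2 cells, so that 73.9% of the 693 calls were higher in B1a cells. That share was 53.3% with limma on log2(TPM + 1), where the same 2 members were called. The groups did not overlap in CPM in 5 of the 7 genes, against 54.3% of all tested genes. Their median log2 fold change was 0.01, beside -0.03 over all genes tested. In these bulk libraries, fewer cells that express a gene and less RNA in each cell cannot be told apart.

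**Figure D1:**
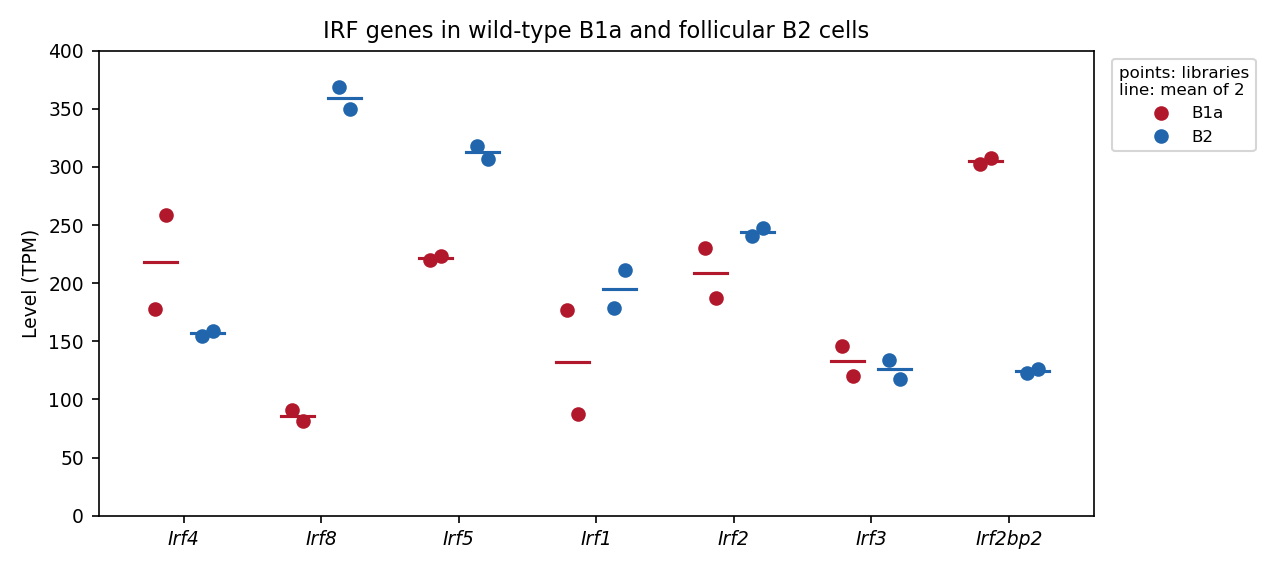
Level in TPM (y axis, from 0) of the 7 genes (x axis) in each library; points are libraries, red for B1a and blue for B2, and lines are means of 2. Irf8 lay at 81.8 to 90.6 TPM in B1a and at 350 to 369 TPM in B2 libraries, and Irf2bp2 was separated in the opposite direction.

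Irf8 (chromosome 8, 120736358 to 120756694 of GRCm38) showed the largest decrease of the members. Its level was 116 and 103 CPM in the B1a replicates and 395 and 386 CPM in the B2 replicates. The B1a values thus lay close together and far below both B2 values. The log2 fold change was -1.84 (SE, the standard error, 0.13, edgeR adjusted p = 0.00236), a 3.57-fold lower level in B1a cells. Irf8 passed the threshold in all 10 alternative analyses, with adjusted p of at most 0.0117. In the 4 fits that left out a library its log2 fold change lay between -1.92 and -1.76. The annotation of GENCODE also places a same-strand gene model, Gm20388, across the whole of Irf8; it has no entry in the deposited tables.

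Irf4 (chromosome 13, 30749233 to 30766981) was measured at 355 and 530 CPM in B1a libraries, against 262 and 274 CPM in B2 libraries. Both B1a libraries lay above both B2 libraries, but they differed from each other by 1.49-fold, and the lower of them lay nearer to the B2 libraries than to the other B1a library. The log2 fold change of 0.72 (SE 0.20, unadjusted p = 0.0125) did not pass over all genes (edgeR adjusted p = 0.119). Adjusted p ranged from 0.000487 to 0.288 in the alternatives and passed in 4 of 10. The log2 fold change was 0.98 without B1a replicate 1 and 0.40 without B1a replicate 2. Fits without 1 B1a library called far more genes of every kind, so their calls of Irf4 are not read as a result.

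The balance of Irf4 to Irf8 was examined on the TPM scale, which is per transcript length and allows levels of different genes to be compared. In B1a replicate 1, Irf4 was found at 178 TPM and Irf8 at 90.6 TPM. In B1a replicate 2 the levels were 259 and 81.8 TPM. In B2 replicate 1, Irf4 was found at 155 TPM and Irf8 at 369 TPM, and in B2 replicate 2 at 159 and 350 TPM. The order of the pair was thus inverted: Irf4 was 1.96 and 3.16 times Irf8 in the B1a libraries, and Irf8 was 2.38 and 2.20 times Irf4 in the B2 libraries.

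The log2 ratio of Irf4 to Irf8 averaged 1.32 ± 0.49 in B1a and -1.19 ± 0.08 in B2 cells (SD, n = 2 each). The difference of 2.51 corresponds to a 5.70-fold shift of the ratio, and the closest libraries of either group were 2.11 apart. An exact two-sided permutation test of 2 libraries against 2 gave p = 0.333, the smallest it can give. Since both genes are read from the same library, the ratio does not depend on how libraries are scaled to each other. In mean log2 TPM, Irf8 differed by -2.06 and Irf4 by 0.45 between B1a and B2 cells, so most of the shift lay in Irf8. Leaving out any one library kept the difference between 2.17 (without B1a replicate 2) and 2.86 (without B1a replicate 1). Irf4 made up 66.2% and 76.0% of the summed TPM of the pair in B1a libraries, and 29.5% and 31.3% in B2 libraries. The sum itself was 268 and 340 TPM in B1a and 523 and 509 TPM in B2 libraries. Unlike the ratio, this sum depends on the scale. The median log2 fold change of all genes was -0.30 with limma on log2(TPM + 1) and -0.03 in the main test.

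**Figure D2:**
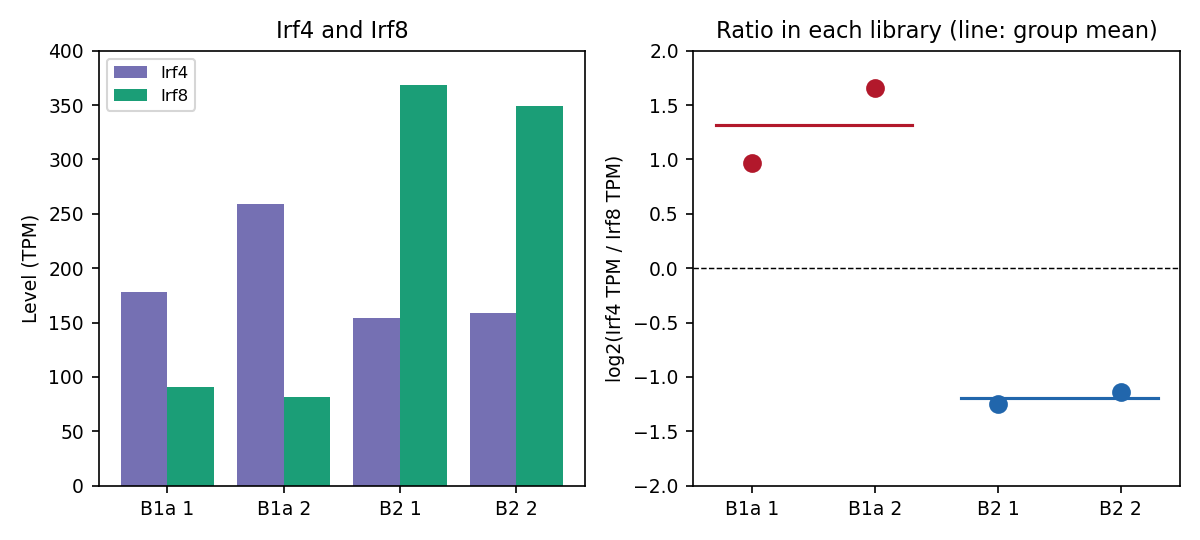
Left, TPM of Irf4 and Irf8 (y axis, bars from 0) in each library (x axis). Right, log2 of the ratio of Irf4 TPM to Irf8 TPM in each library, with lines at the group means of 1.32 (B1a) and -1.19 (B2); the B1a points lie above 0 and the B2 points below it.

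Irf2bp2 (chromosome 8, 126588296 to 126593986), the corepressor gene, was the member that rose in B1a cells. It was found at 584 and 609 CPM in B1a libraries, against 202 and 210.5 CPM in B2 libraries. Replicates of a cell type differed by at most 1.04-fold, so the groups were well separated. The log2 fold change was 1.53 (SE 0.11, edgeR adjusted p = 0.00236), a 2.89-fold higher level in B1a cells. This call held in 10 of 10 alternatives, with adjusted p of at most 0.0247, and in each fit without 1 library. GENCODE places an antisense gene model, Gm26759, over 2693 bases of Irf2bp2, and opposite-strand models also lie over Irf1 (907 bases) and Irf2 (up to 1723 bases). None of these has an entry in the deposited tables, and if counting ignored strand their reads could be counted to the IRF gene. Irf2bp1 and Irf2bpl, which encode proteins similar to IRF2BP2, lay lower in both B1a libraries and did not pass the test. Irf2bp1 was found at 22.6 and 32.8 CPM in B1a and 53.8 and 42.0 CPM in B2 libraries (log2 fold change -0.79, SE 0.32, edgeR adjusted p = 0.241). Irf2bpl was found at 67.3 and 67.9 CPM in B1a and 116 and 100.4 CPM in B2 libraries (log2 fold change -0.68, SE 0.19, edgeR adjusted p = 0.111).

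IRF3 and IRF5 are the members that innate receptors activate. Irf5 (chromosome 6, 29526130 to 29541869) was found at 206 and 209.9 CPM in B1a libraries, against 251 and 247 CPM in B2 libraries. These were the tightest replicates of any member, and the groups did not overlap. The log2 fold change of -0.26 (SE 0.12, edgeR adjusted p = 0.308) did not pass, and it passed in 0 of 10 alternatives.

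Irf3 (chromosome 7, 44997648 to 45002848) was found at 124 and 105 CPM in B1a and 96.8 and 86.1 CPM in B2 libraries. The groups lay apart in CPM but overlapped in TPM (146 and 120 in B1a, 134 and 118 in B2), and the log2 fold change of 0.32 did not pass (SE 0.18, edgeR adjusted p = 0.406). Irf3 and Irf5 each overlap a counted gene on the opposite strand, Bcl2l12 over 1065 bases and Tnpo3 over 1045 bases. The strand setting of the authors' counting is not given in the sources used here, and without it reads of the overlap cannot be assigned to one gene.

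Irf1 and Irf2, the activator and repressor of interferon-responsive genes, were not called. Irf1 (chromosome 11, 53770014 to 53778374) was found at 155 and 80.04 CPM in B1a libraries, against 135 and 163 CPM in B2 libraries. The B1a replicates differed by 1.94-fold, the widest gap of any member, and enclosed one of the B2 values. The log2 fold change was -0.34 (SE 0.32, edgeR adjusted p = 0.632). Without B1a replicate 1 it was -0.90, and without B1a replicate 2 it was 0.05, so the direction rested on 1 library. Irf2 (chromosome 8, 46739745 to 46847458) was found at 240 and 200.3 CPM in B1a and 214 and 224 CPM in B2 libraries. The groups overlapped, with a log2 fold change of 0.01 (SE 0.15, edgeR adjusted p = 0.979). The sign of this value changed with the scaling and it was -0.24 with limma on log2(TPM + 1), on which the median of all genes also shifted from -0.03 to -0.30.

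**Figure D3:**
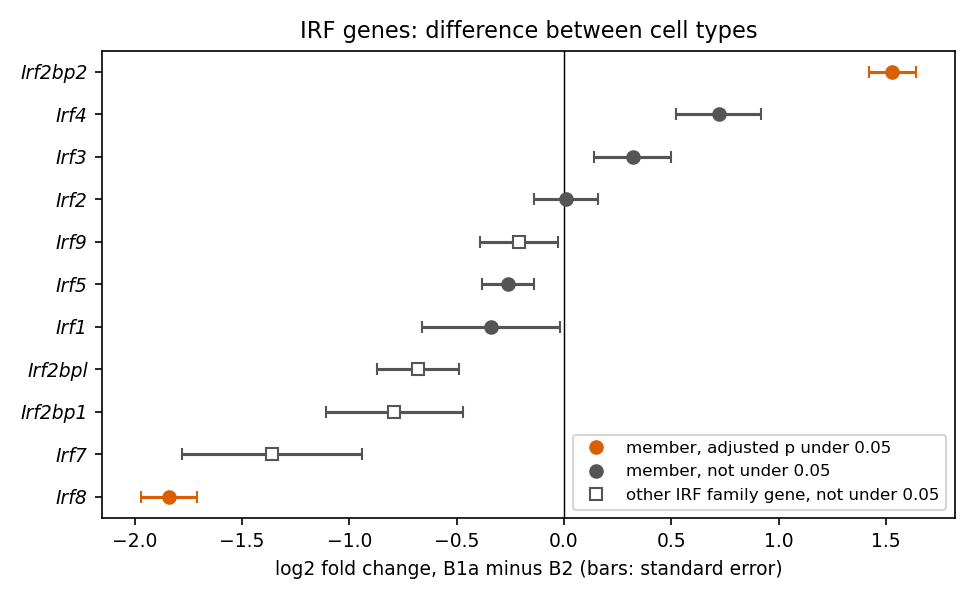
log2 fold change of B1a minus B2 (x axis) for the 7 genes (circles) and 4 other genes of the IRF and IRF2-binding families (squares), with bars of 1 standard error from edgeR's quasi-likelihood fit. Irf8 at -1.84 and Irf2bp2 at 1.53 are the 2 genes past the threshold.

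The order of levels changed between the cell types. In B1a cells, Irf2bp2 was highest on the TPM scale (305 ± 3.64, SD, n = 2) and was separated from the rest. It was followed by Irf5 (221 ± 2.35 TPM), Irf4 (218 ± 57.2 TPM) and Irf2 (208 ± 30.3 TPM), whose replicates overlapped. Irf3 and Irf1 came next at 133 ± 18.3 and 132 ± 63.4 TPM and could not be ordered, and Irf8 was the lowest member at 86.2 ± 6.24 TPM. It lay below Irf1 in both B1a libraries, although the highest Irf8 value (90.6 TPM) passed the lowest Irf1 value (87.6 TPM) of the other library. In B2 cells, the order was Irf8 (359 ± 13.5 TPM), Irf5 (313 ± 8.12 TPM), Irf2 (244 ± 5.09 TPM), Irf1 (195 ± 23.3 TPM) and Irf4 (157 ± 3.13 TPM), each separated from the next in both replicates. Irf3 (126 ± 11.8 TPM) and Irf2bp2 (125 ± 2.28 TPM) overlapped at the lower end. Irf8 thus moved from rank 1 among these genes in B2 cells to rank 7 in B1a cells, and Irf2bp2 from rank 7 to rank 1.

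Among the other family genes, Irf7 and Irf9 were examined. Irf7, the interferon-induced amplifier of the type I interferon response, was found at 9.59 and 13.9 CPM in B1a and 26.6 and 33.8 CPM in B2 libraries. Both B1a values lay below both B2 values, but the log2 fold change of -1.36 did not pass (SE 0.42, edgeR adjusted p = 0.145). Irf9, which joins STAT factors on interferon-stimulated genes, was found at 85.7 and 92.7 CPM in B1a and 96.5 and 109 CPM in B2 libraries (log2 fold change -0.21, SE 0.18, edgeR adjusted p = 0.601).

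Summed over Irf1, Irf2, Irf3, Irf4, Irf5, Irf7, Irf8 and Irf9, transcripts came to 1134 and 1062 TPM in the B1a replicates and 1548 and 1569 TPM in the B2 replicates. Irf8 made up 7.99% and 7.70% of this pool in B1a and 23.8% and 22.3% in B2 libraries. Irf4 made up 15.7% and 24.4% in B1a and 9.99% and 10.1% in B2 libraries. The share of Irf5 lay between 19.4% and 21.0% in all 4 libraries, and that of Irf9 between 7.06% and 8.03%. Within the pool, the libraries therefore differed most in the shares of Irf8 and Irf4. The summed TPM, unlike these shares, depends on the scale used to compare libraries. The 7 members, with Irf2bp2 and without Irf7 and Irf9, summed lower in B1a libraries in TPM (1344 and 1266, against 1518 and 1519 in B2 libraries). In CPM they summed higher (1780 and 1837 in B1a, against 1556 and 1591 in B2 libraries).

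**Figure D4:**
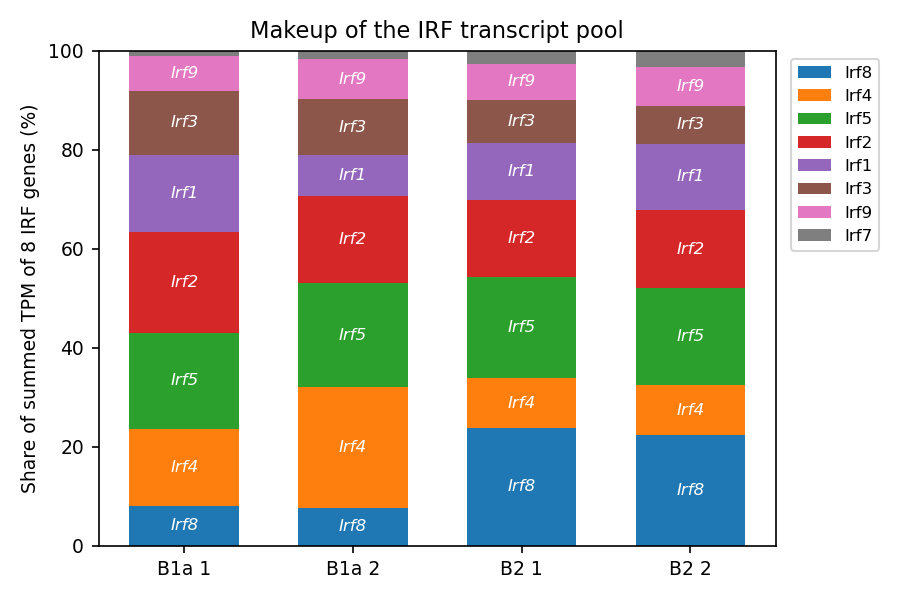
Share of each gene in the summed TPM of the 8 IRF genes (y axis, percent, from 0) in each library (x axis). Irf8 takes 7.70% to 7.99% in B1a and 22.3% to 23.8% in B2 libraries.

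Genes that act with, above or below IRF proteins were described from 8 lists with 67 distinct tested genes, of which 2 were called higher in B1a and 4 higher in B2 cells. Their median log2 fold change was -0.05. Among 9 tested DNA-binding partners of IRF4 and IRF8, 0 were called, with a median log2 fold change of 0.03; at an unadjusted p under 0.05 there were 4, and DESeq2 called 3. Over all genes tested, 20.9% had an unadjusted edgeR p under 0.05 and DESeq2 called 12.8%, against which such counts are to be read. The ETS partners were singled out after their values were seen. Spi1, which encodes PU.1, was found at 55.1 and 68.9 CPM in B1a and 70.1 and 74.4 CPM in B2 libraries (log2 fold change -0.22, SE 0.22, edgeR adjusted p = 0.659). Spib was found at 580.1 and 553 CPM in B1a and 633 and 647 CPM in B2 libraries (log2 fold change -0.18, SE 0.10, edgeR adjusted p = 0.42). The partner genes with the highest TPM were Jund, an AP-1 subunit (log2 fold change 0.36, adjusted p = 0.168), and Ikzf3, which encodes the Ikaros relative Aiolos (log2 fold change -0.42, adjusted p = 0.0743), neither past the threshold of the edgeR test. Ikzf3 passed in 8 of 10 alternatives. Batf2 had 0 counts in every library.

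Of 14 tested innate adaptors and kinases upstream of IRF3 and IRF5, 0 were called (median log2 fold change 0.13), with 3 at an unadjusted p under 0.05 and 2 called by DESeq2. Slc15a4, the lysosomal transporter needed for IRF5 activation by Toll-like receptors, had a log2 fold change of -0.14 (edgeR adjusted p = 0.692), and Irak2, a kinase-like adaptor, of 0.33 (edgeR adjusted p = 0.256). Of 8 antigen receptor and NF-κB genes that feed into Irf4 induction, 0 were called (median log2 fold change -0.08), with 3 at an unadjusted p under 0.05 and 2 called by DESeq2. Nfkb1, which encodes p105 and p50, had a log2 fold change of 0.41 (edgeR adjusted p = 0.137), and Malt1, the paracaspase of this pathway, of -0.03 (edgeR adjusted p = 0.958). Other genes of both lists, named after their values were seen, passed in part of the alternatives. Ticam1 (log2 fold change 1.06, edgeR adjusted p = 0.055) passed in 6 of 10 and Ikbke (1.34, edgeR adjusted p = 0.0891) in 4 of 10. Nfkb2 (-0.75, edgeR adjusted p = 0.0656) passed in 7 of 10.

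Genes of germinal center and plasma cell fate held all 6 calls among the list genes reported here. Of 7 tested genes, 2 were called higher in B1a and 4 higher in B2 cells, and the median log2 fold change was -0.58. These genes were chosen with earlier results known, so their count is no independent evidence. Zbtb20, a zinc finger gene of the plasma cell program, was found at 246 and 212 CPM in B1a and 58.9 and 62.6 CPM in B2 libraries (log2 fold change 1.91, SE 0.16, edgeR adjusted p = 0.00362). Prdm1, which encodes the plasma cell regulator BLIMP1, was found at 22.4 and 36.2 CPM in B1a and 4.16 and 4.13 CPM in B2 libraries (log2 fold change 2.82, SE 0.51, edgeR adjusted p = 0.0346). Both B1a values of either gene lay above both B2 values.

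Another 4 genes of this list, with roles in B cell identity, antigen presentation and the germinal center, fell in B1a cells. Ciita, the transactivator of MHC class II genes, was found at 387 and 311 CPM in B1a and 1111 and 943 CPM in B2 libraries (log2 fold change -1.56, SE 0.16, edgeR adjusted p = 0.00535). Bcl6, the germinal center repressor, was found at 43.8 and 15.9 CPM in B1a and 143 and 159 CPM in B2 libraries (log2 fold change -2.34, SE 0.47, edgeR adjusted p = 0.0469). The B1a replicates of Bcl6 differed widely but lay below both B2 values. Of the factors that set B cell identity, Pax5 had a log2 fold change of -0.90 (adjusted p = 0.01) and Ebf1 of -0.58 (adjusted p = 0.0431), both past the threshold of the same edgeR test. Prdm1 passed in 6, Bcl6 in 7 and Ebf1 in 9 of 10 alternatives. Xbp1, the secretory regulator, was found at 60.2 and 58.7 CPM in B1a and 59.3 and 78.6 CPM in B2 libraries and was not called (log2 fold change -0.21, edgeR adjusted p = 0.692).

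**Figure D5:**
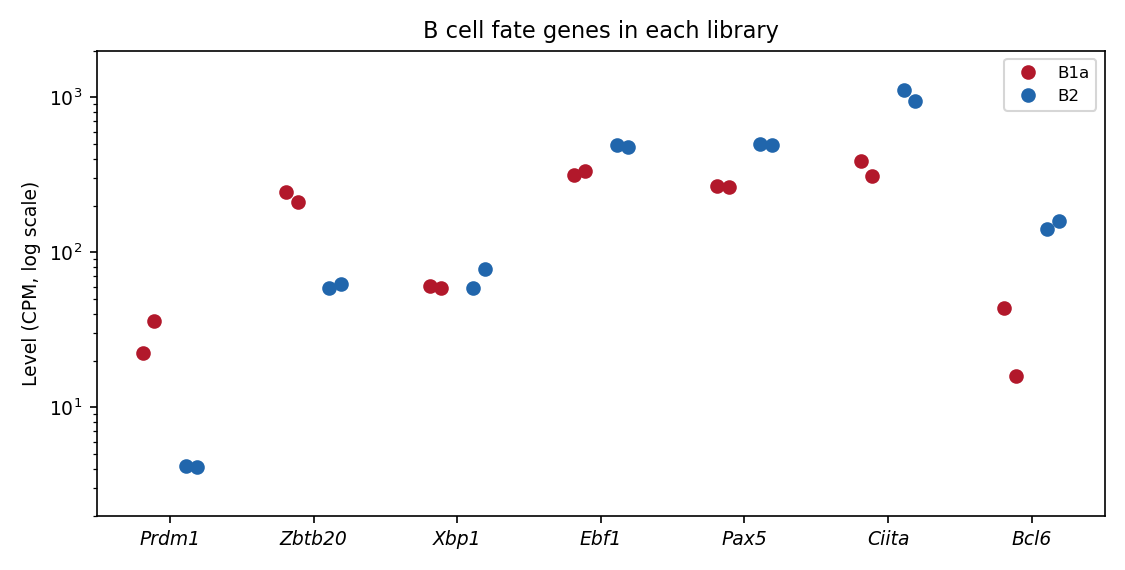
Level in CPM (y axis, log scale) of 7 B cell fate genes (x axis) in each library, red for B1a and blue for B2. Prdm1 and Zbtb20 lie higher in both B1a libraries and Ebf1, Pax5, Ciita and Bcl6 lower, while Xbp1 overlaps.

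Interferon signaling genes were compared because Irf1, Irf7, Irf8 and Irf9 are themselves induced by interferons. Of the 10 tested receptor and signaling genes reported here, 0 were called (median log2 fold change -0.38), with 7 at an unadjusted p under 0.05 and 4 called by DESeq2. Ifnar1, a type I interferon receptor chain, had a log2 fold change of -0.32 (adjusted p = 0.21), and the kinase gene Jak1 of -0.44 (adjusted p = 0.0853), neither past the threshold of the same edgeR test. Jak1 passed in 5 of 10 alternatives. In the same list, and named after their values were seen, the receptor gene Ifngr2 passed in 9 (log2 fold change -0.82, edgeR adjusted p = 0.0574) and Stat2 in 7 of 10 (log2 fold change -0.79, edgeR adjusted p = 0.0578).

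Of 9 listed interferon-stimulated genes, 7 were tested and 0 called (median log2 fold change -0.40), with 1 at an unadjusted p under 0.05 and 0 called by DESeq2. They were low in every library, with a summed level of 31.3 and 43.8 CPM in B1a and 72.0 and 58.7 CPM in B2 libraries. The B1a sums hide differences between the replicates. Ifit3 was at 16.1 and 0.0899 CPM and Ifit1 at 0 and 9.26 CPM in B1a replicates 1 and 2. In B2 libraries Ifit3 was at 11.8 and 9.62 CPM and Ifit1 at 6.42 and 3.71 CPM. Isg15, a ubiquitin-like modifier, was found at 3.50 and 7.73 CPM in B1a and 24.6 and 15.7 CPM in B2 libraries (log2 fold change -1.84, SE 0.66, edgeR adjusted p = 0.189). Bst2, which encodes tetherin, had a log2 fold change of 0.16 (edgeR adjusted p = 0.943). Of 8 MHC class I processing genes, classical targets of IRF1 and IRF2, 0 were called (median log2 fold change 0.23), with 2 at an unadjusted p under 0.05 and 1 called by DESeq2. B2m, the light chain of class I molecules, had a log2 fold change of 0.59 (adjusted p = 0.121), and Tapbp, which encodes tapasin, of 0.38 (adjusted p = 0.166), neither past the threshold of the same edgeR test.

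Genes whose CPM followed that of Irf4 or Irf8 most closely over the 4 libraries were taken from the 8900 tested genes averaging 10 CPM or more, by the root mean square difference of centred log2(CPM + 1). For Irf4 these were Yipf2 (0.022), Slc6a6 (0.036) and Yipf3 (0.036). Each of them, like Irf4, was highest in B1a replicate 2 and was not called. For Irf8 they were Myof (0.061), Cnr2 (0.092) and Ptk2b (0.106). Cnr2, the cannabinoid receptor 2 gene, was found at 104 and 78.7 CPM in B1a and 336 and 344 CPM in B2 libraries, and Ptk2b, a tyrosine kinase gene, at 157 and 167 CPM in B1a and 629 and 617 CPM in B2 libraries. With 4 libraries in 2 groups, such likeness largely describes the group difference and carries no test.

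Markers of other cells were counted because macrophages, dendritic cells and plasma cells also use IRF genes. The 9 macrophage markers summed to 239 and 285 CPM in B1a and 73.0 and 79.1 CPM in B2 libraries, with Lyz2 at 127 and 136 CPM in B1a and 16.8 and 27.2 CPM in B2 libraries, Emr1 (which encodes F4/80) at 27.7 and 39.0 CPM in B1a and 8.24 and 11.9 CPM in B2 libraries, and Fcgr1 at 0 in both B1a libraries. Of the 8 tested, 1 was called, Lyz2 (log2 fold change 2.57, edgeR adjusted p = 0.00764), 5 had an unadjusted p under 0.05 and DESeq2 called 3. Both B1a values lay above both B2 values for 6 of the 8, while Csf1r, the receptor that macrophages depend on, was at 16.9 and 21.9 CPM in B1a and 21.2 and 18.3 CPM in B2 libraries, and Mrc1 at 2.06 and 21.0 CPM in B1a and 5.73 and 4.76 CPM in B2 libraries. The summed level was thus higher in the libraries where Irf8 was lower and Irf4 and Irf2bp2 were higher, and its part in these differences was not tested. The 6 dendritic cell markers summed to 20.1 and 34.4 CPM in B1a and 47.1 and 34.7 CPM in B2 libraries, and 0 were called. Their part in the Irf8 difference was not tested. Of 4 tested plasma cell markers 1 was called, Prdm1. The plasma cell marker Sdc1 was at 0 and 8.27 CPM in B1a and 13.4 and 25.2 CPM in B2 libraries. Igj, which encodes the J chain, lay between 0.179 and 5.40 CPM, and Tnfrsf17 had 0 counts in every library. Slamf7, the most abundant marker of this list, was at 145 and 74.0 CPM in B1a and 93.1 and 95.1 CPM in B2 libraries. It was not called (log2 fold change 0.22, edgeR adjusted p = 0.786). The 6 T cell markers summed to 108 and 68.8 CPM in B1a and 82.8 and 79.2 CPM in B2 libraries, and 0 were called. Among the dendritic and T cell markers, 0 and 1 passed an unadjusted p under 0.05, and DESeq2 called 0 and 1.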

How the data were processed

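RNA-Seq libraries were prepared from RNA of sorted cells; the labels name a kit that depletes rRNA, whereas the study elsewhere speaks of polyadenylated RNA, so the selection is not settled. The authors used mm10 as the reference and obtained values per RefSeq gene with RSEM (version 1.2.29 in the submitters' processing notes; the methods name another version), and deposited 1 table per library. Each table gives the deposited expected count, the deposited TPM (per effective length, scaled to the same total in each library), and, as a signal in reads, the authors' posterior standard deviation of the count, which was at most 0.299% of the count for the members. Deposited transcript lengths were not tested. Whether counting used strand is not given in the sources used here.

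Expected counts were summed by symbol and rounded. Low genes were removed by filterByExpr, TMM factors were applied, and edgeR 4.0.16 (quasi-likelihood, R 4.3.3) gave p-values, with Benjamini-Hochberg adjustment over 12078 genes and a threshold of 0.05. Standard errors were derived from the F statistic. TPM was used to compare genes, and TMM-scaled CPM to compare libraries. The study's tool, EBSeq, was not run. Alternatives were DESeq2 1.42.0, limma 3.58.1 (on voom values and on log2(TPM + 1) and log2(TPM + 0.1)), upper quartile factors, 2 other filters, a replicate block and leaving out each library. The scripts were tested on simulated data.

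Text names the 7 members, the other IRF family genes, the called genes and the 2 genes of highest mean TPM of each list, and the 3 genes most like Irf4 and Irf8. Spi1, Spib, Batf, Xbp1, Ticam1, Ikbke, Nfkb2, Ifngr2, Stat2, Ifit1 and Ifit3 were named outside this rule, after their values were seen. The same holds for the markers of other cells. The members and lists were chosen with earlier results of these data known. Some listed genes are not reported here and are left out of all list counts and sums; they were taken out after their values were seen. Of the listed genes, Mx1 was not found, and F4/80 is listed under its older symbol Emr1. Promoters and coordinates come from RefSeq (GRCm38.p6) and gene overlaps from GENCODE on the same build.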

Additional observations from a re-analysis of the deposited data

How the results depend on the processing

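Irf8 and Irf2bp2 were called in the same direction under all 10 alternatives and in all 4 fits without 1 library, and Irf5 under none. With a log2 fold change of 1 or more in either direction added as a condition after seeing the data, the 2 members called remained. Without B1a replicate 1 the log2 fold change of Irf1 was -0.90, and without B1a replicate 2 that of Irf3 was 0.44. Irf4 was called with DESeq2 (adjusted p = 0.00565), limma-voom with cell type weights (0.00348) and no filter (0.0203), over a range of 0.000487 to 0.288. The Irf4 to Irf8 difference stayed between 2.17 and 2.86 in 9 alternatives, of which the limma-voom fit was added after seeing the data.

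Without 1 library, the log2 fold change of Irf1 ranged from -0.90 to 0.05 and that of Irf2 from -0.13 to 0.13. Some log2 fold changes near 0 changed sign. Irf1 was 0.05 without B1a replicate 2. Irf2 was -0.06 with upper quartile factors, -0.00036 with limma-voom, -0.00011 with cell type weights, -0.24 in each of the 3 TPM fits, -0.13 without B1a replicate 1 and -0.02 without B2 replicate 1. The cause was not tested.

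The number of genes called, 693, was 1550 with DESeq2, 1415 with cell type weights, 1141 without a filter, 359 on log2(TPM + 0.1) and 202 on log2(TPM + 1) without a filter. Of the IRF-linked list genes, 6 in the main test, 18 were called with DESeq2, 12 with limma-voom, 17 with cell type weights, 11 with at least 10 counts in every library, 14 without a filter and 3 on log2(TPM + 1) without a filter. Over the fits without 1 library the calls ranged from 539 to 6143 genes and from 4 to 41 list genes. The highest counts arose when a B1a library was left out, which leaves the spread to be estimated from the B2 pair alone and assumes that the lone B1a library varies like it.

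The deviations of same-numbered libraries from their group means correlated at -0.0347 across genes. With 2 libraries per group both pairs give this same value by construction. It therefore cannot decide whether the replicate numbers pair the samples. With the replicate block 1481 genes, 18 list genes and 3 members were called, and Irf4 had a log2 fold change of 0.69 (adjusted p = 0.000487 from edgeR). The balance under the replicate block was 2.51.

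With 2 libraries per cell type, the common biological coefficient of variation was 0.507, a value over all genes tested. Irf5 and Irf3, with standard errors of 0.12 and 0.18, did not pass, and the reason was not tested. The members had 890 counts or more in every library.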
